A study of Mus musculus with 21 samples.

Results

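The mouse genes Baiap2l1, Tslp, Cfap70 and Pet2, 4 in all, were chosen from 12404 genes listed in any of the 3 deposited expression tables because Tet1CD libraries had higher values in reprogramming cells grown with vitamin C and not in cells grown without it, or because the gene is listed only with vitamin C. Those values made the choice, so the Tet1CD response of these genes is given here as a description with no test. The vitamin C table lists all 4 genes among 12021, the table without vitamin C lists Baiap2l1 and Tslp among 10723, and the fibroblast table lists only Baiap2l1 of them among 11152.

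The 21 RNA sequencing libraries came from mouse embryonic fibroblasts (MEFs) of the ICR strain at passage 2, made from embryos of 13.5 days. In 14 of them the fibroblasts were reprogrammed with retroviruses for Oct4, Klf4, c-Myc and Sox2 (SKOM) and harvested at day 5, in mouse embryonic stem cell medium that lacked vitamin C (Vc-) or contained it (Vc+). All cultures further received retroviruses for the constructs in its name over 48 hours. In each medium 1 library carried Flag and shLuc (called the control), 1 Dnmt1, 1 shDnmt1, 1 shp53 with shDnmt1, 1 Tet1CD alone, 1 Tet1CD with shDnmt1 and 1 Tet1CD with Dnmt1, which the titles spell Dmnt1. The MEF libraries carried the control constructs, Dnmt1, shDnmt1, shp53, shp53 with shDnmt1 or Tet1CD, and the MEF table also holds 1 library labelled 5C with the control constructs. The retroviruses enter a mixed population, so each library averages over cells that may carry different constructs. Every combination has 1 library per setting, and the labels do not say which libraries came from separate cultures, so every error below measures the spread between libraries, which may be technical.

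Tet1 is an enzyme that oxidises methylated cytosine, a first step in removing DNA methylation, and CD usually stands for its catalytic domain. Vitamin C keeps the iron of this enzyme family in the reduced state that the reaction needs, and Dnmt1 copies methylation onto newly made DNA. Baiap2l1 encodes an I-BAR adaptor that bends membranes and links them to actin, Tslp a cytokine released by epithelial and stromal cells, Cfap70 an axonemal protein of motile cilia and sperm tails, and Pet2 an X-linked protein that RefSeq names Dcaf8l, after its relation to Dcaf8, a substrate receptor of a ubiquitin ligase.

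Values are whole numbers that the authors normalised within each table, and the 7 libraries of a SKOM table share their median (226 with vitamin C, 180 without), so they carry no depth and no counting error. Levels are therefore compared within a table. In the Vc+ table Tet1 was 2503 to 3129 in the 3 libraries labelled Tet1CD and 41 to 88 in the other 4, and without vitamin C it was 2140 to 2632 against 11 to 19. The MEF table does not list Tet1, so the MEF Tet1CD label was not checked this way. Dnmt1 was not clearly higher in the libraries labelled Dnmt1: with vitamin C it was 2381 beside 2346 in the control and 1224 with Tet1CD beside 1080 with Tet1CD alone, and without vitamin C 1001 beside 984 and 778 beside 967. The last pair goes against its label, so effects named for Dnmt1 below are those of the libraries labelled Dnmt1. Libraries labelled shDnmt1 had 1154 and 527, and Trp53 was lowest in the shp53 library of each medium (621 and 453).

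The upstream 250 bases of the start site are shown for the members with a promoter window, Baiap2l1 and Cfap70, because the constructs act on methylation at CG dinucleotides and the windows differ in how many they hold. The sequences are RefSeq's on GRCm38.p6, the NCBI name for mm10, both on the minus strand and written 5′ to 3′ in the gene's direction, with each CG in capitals.
Baiap2l1 (chr5:144358113-144358362): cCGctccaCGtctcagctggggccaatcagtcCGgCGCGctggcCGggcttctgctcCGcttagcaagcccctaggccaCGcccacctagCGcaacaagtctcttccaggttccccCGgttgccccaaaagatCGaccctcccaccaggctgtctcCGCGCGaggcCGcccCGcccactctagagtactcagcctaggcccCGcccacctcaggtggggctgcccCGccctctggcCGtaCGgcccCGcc
Cfap70 (chr14:20452226-20452475): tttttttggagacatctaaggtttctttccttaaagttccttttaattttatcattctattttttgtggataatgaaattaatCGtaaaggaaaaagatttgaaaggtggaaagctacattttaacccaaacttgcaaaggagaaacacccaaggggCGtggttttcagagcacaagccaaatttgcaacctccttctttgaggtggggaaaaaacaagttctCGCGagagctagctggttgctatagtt
The Baiap2l1 stretch holds 21 CG and the Cfap70 stretch 4. Over the whole 300 base window, which runs 50 bases past the start site, Baiap2l1 has 25 CG and a GC content of 71%, and 18.4% of the 32851 mouse windows hold as many CG. Cfap70 has 5 CG and a GC content of 39.3%, and 62% of windows hold as many. The median was 21 CG over the 10025 windows of genes in the Vc+ table and 10 over the 593 windows of genes that were at least 2-fold higher with Tet1CD there (462 of 609 such genes have a window). Baiap2l1 thus lies above the first median and Cfap70 below both. The E-box letters CACGTG (in 7.15% of windows), TCCCGC (20%) and TGACGTCA (1.79%), searched on both strands, are in neither window. No methylation or binding data are used here.

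With vitamin C, Baiap2l1 had the highest level of the 4 genes. The Vc+ libraries with Tet1CD, Tet1CD+Dnmt1 and Tet1CD+shDnmt1 had 1142, 945 and 1077, and the control, Dnmt1, shDnmt1 and shp53+shDnmt1 libraries had 91, 80, 73 and 78. The 2 sets are far apart and do not overlap, with means of 1054.67 ± 100.4 (SD, n = 3) and 80.5 ± 7.59 (SD, n = 4). Of the 12021 genes of the Vc+ table, 25% have all 3 Tet1CD libraries above the other 4. The fitted Tet1CD change was 3.62 ± 0.10 (SE) on the log2(value + 5) scale, and each library with Tet1CD stood above its partner without it, by 3.58, 3.48 and 3.79 for the control, Dnmt1 and shDnmt1 backgrounds. In bulk RNA, more cells that express a gene and more RNA per cell cannot be told apart, for these or any other values.

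Without vitamin C, Baiap2l1 had similar values with and without Tet1CD. The Vc- libraries with Tet1CD, Tet1CD+Dnmt1 and Tet1CD+shDnmt1 had 56, 51 and 62, and the control, Dnmt1, shDnmt1 and shp53+shDnmt1 libraries had 57, 68, 64 and 62. These ranges overlap. The fitted change was -0.15 ± 0.13 (SE), and the difference of the Tet1CD change between media was 3.77 ± 0.16 (SE).

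For Tslp the libraries with Tet1CD lay on opposite sides of the others in the 2 media. With vitamin C the Tet1CD, Tet1CD+Dnmt1 and Tet1CD+shDnmt1 libraries had 83, 70 and 86, and the control, Dnmt1, shDnmt1 and shp53+shDnmt1 libraries 18, 13, 19 and 13. Without vitamin C the same order of libraries gave 10, 9 and 11 against 32, 34, 30 and 19. In both media the groups do not overlap. Tslp was higher with Tet1CD in Vc+ cells, where 25% of genes have all 3 Tet1CD libraries above the other 4. It was lower with Tet1CD in Vc- cells, where 15.7% of genes have all 3 Tet1CD libraries below the other 4. The means were 79.67 ± 8.50 (SD, n = 3) and 15.75 ± 3.20 (SD, n = 4) with vitamin C and 10 ± 1 (SD, n = 3) and 28.75 ± 6.70 (SD, n = 4) without. The fitted Tet1CD changes were 1.97 ± 0.19 (SE) and -1.30 ± 0.27 (SE), and their difference 3.28 ± 0.32 (SE). All of these Tslp values lie below the median of their table. In each table every gene reaches 32 in 2 or more libraries. Tslp reached 32 only with Tet1CD in Vc+ cells and only without it in Vc- cells. The listing of Tslp thus partly fixed its direction in each medium.

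Cfap70 and Pet2 were at or near 0 in Vc+ cells without Tet1CD and well above it in all 3 libraries with Tet1CD. For Cfap70 the libraries with Tet1CD, Tet1CD+Dnmt1 and Tet1CD+shDnmt1 had 219, 144 and 233, and the control, Dnmt1, shDnmt1 and shp53+shDnmt1 libraries 3, 2, 0 and 2. The groups do not overlap, and 25% of the genes of the Vc+ table have all 3 Tet1CD libraries above the other 4. The means of Cfap70 were 198.67 ± 47.9 (SD, n = 3) and 1.75 ± 1.26 (SD, n = 4), and the fitted change was 4.93 ± 0.30 (SE). Pet2 had 118, 69 and 132 in the same 3 Tet1CD libraries and was listed at 0 in the other 4, so no fold is given. Cfap70 and Pet2 are not listed in the Vc- and MEF tables. In each table every gene reaches 32 in 2 or more libraries, so Cfap70 and Pet2 could be listed only through their Tet1CD libraries. The rule behind the listing is not given in the sources used here, so the level of an unlisted gene is not known.

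**Figure D1:**
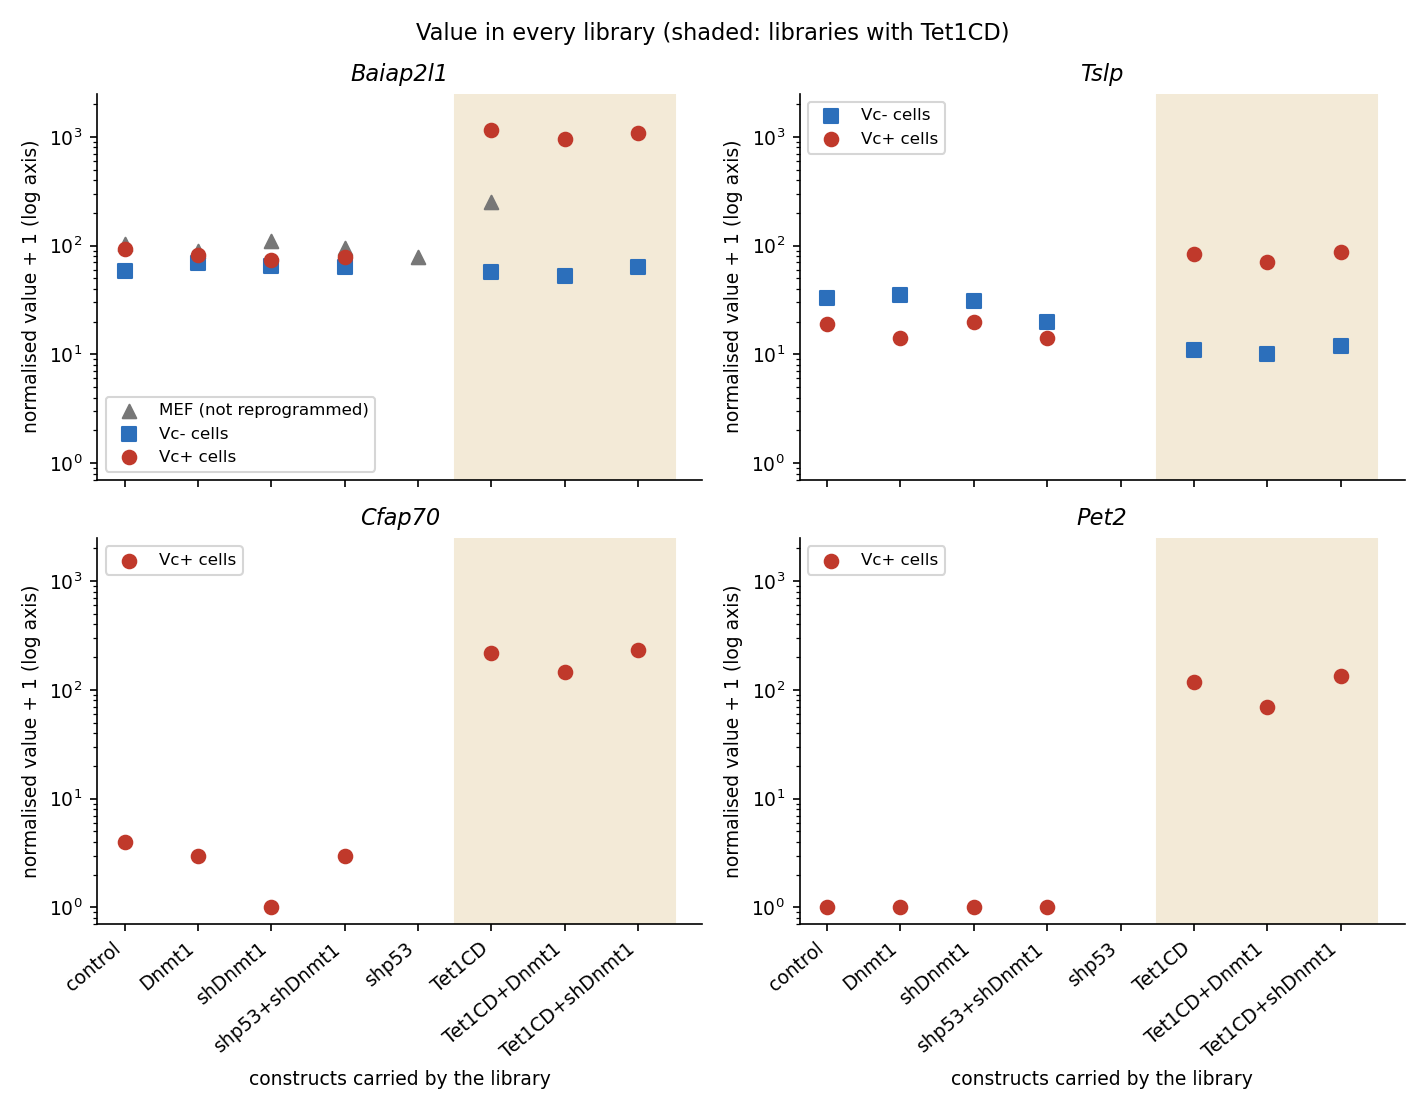
Normalised value plus 1 (log axis) of each of the 4 genes in every SKOM and MEF library that lists it, by construct, with the libraries carrying Tet1CD shaded. Red circles are Vc+ cells, blue squares Vc- cells and grey triangles MEFs; each point is 1 library, and shp53 alone was profiled in MEFs only. In Vc+ cells the shaded points lie at 945 to 1142 for Baiap2l1 and 70 to 86 for Tslp, above the unshaded ones, and in Vc- cells at 51 to 62 and 9 to 11, where only those of Tslp lie below all unshaded ones. The tables were normalised separately, so heights are comparable within a colour.

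Per kilobase of transcript, the mean level with Tet1CD and vitamin C was 325 for Baiap2l1, 70.8 for Tslp, 55.0 for Cfap70 and 25.4 for Pet2. Without Tet1CD in the same medium it was 24.8, 13.99, 0.484 and 0, which is the same order. Without vitamin C the order of the first pair turned with the constructs: Baiap2l1 had 17.3 with Tet1CD against 8.88 for Tslp, and 19.3 without it against 25.5. Before the division by length, Baiap2l1 had the higher mean in both groups, 56.3 against 10 with Tet1CD and 62.75 against 28.75 without. Whether the deposited values were already corrected for length is not given in the sources used here, so the orders per kilobase are a description. The lengths were 3247 bases for Baiap2l1, 1126 for Tslp, 4183 for Pet2 and, since the Cfap70 transcript named in the file is not in GENCODE M21, 3615 for its longest coding transcript.

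The constructs other than Tet1CD were not used to choose the genes, so their effects were tested, with limma fitted over every gene and Benjamini-Hochberg adjustment at 0.05. No member passed for any of them. For Cfap70 and Pet2, which were at 0 to 3 in every library without Tet1CD, such a change could show only through the Tet1CD libraries, and the shp53 term, from the 1 library with shp53, could not show a fall, so it is not read for these genes. In the Vc+ table the fitted Dnmt1 changes of the 4 genes were -0.39 to -0.22 (adjusted p = 1 for each), the shDnmt1 changes -0.30 to 0.08 (adjusted p from 0.859 to 0.977) and the shp53 changes of Baiap2l1 and Tslp 0.00 and -0.39 (adjusted p = 0.998 and 0.807). limma called 0% of genes for Dnmt1 there (184 of 12021 had an unadjusted p under 0.05), 0% for shDnmt1 (482) and 0.0166% for shp53 (2 called, 983 unadjusted), so the members' count of 0 is the count of nearly every gene. The standard errors of Cfap70 and Pet2 for Dnmt1 and shDnmt1 were 0.37 and 0.44, so changes of that size could not be seen.

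**Figure D2:**
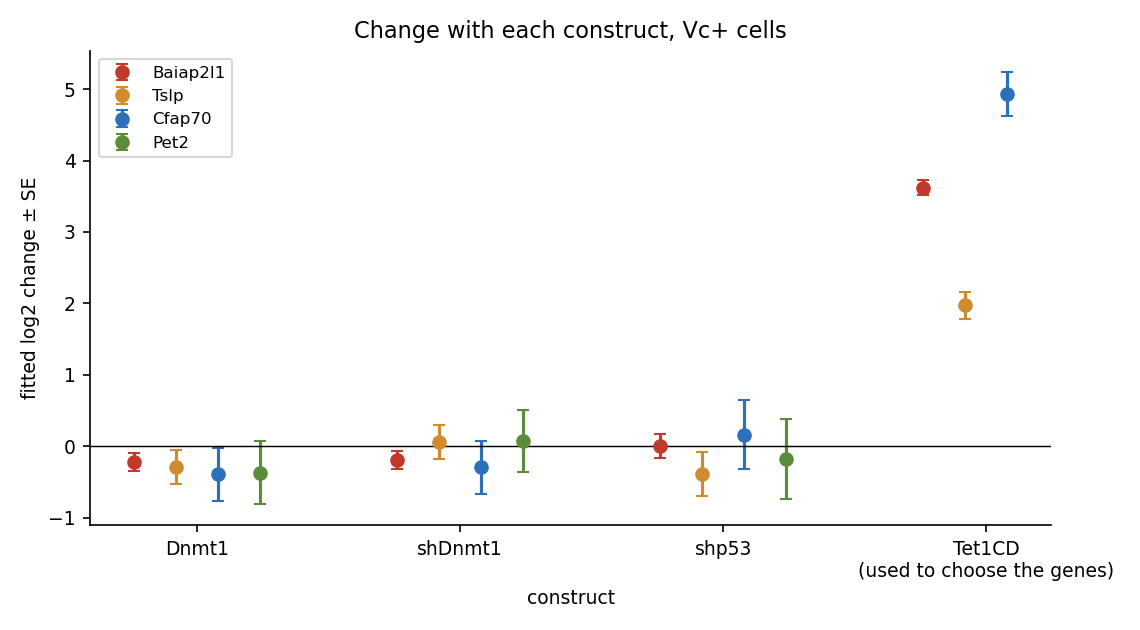
Fitted log2 change of each gene with each construct in the 7 Vc+ libraries, with bars of 1 standard error from limma. The Dnmt1, shDnmt1 and shp53 changes run from -0.39 to 0.16 (the shp53 points of Cfap70 and Pet2 rest on a library where they are at 0 to 2), and the Tet1CD changes, which chose the genes and carry no test, are 3.62 for Baiap2l1, 1.97 for Tslp and 4.93 for Cfap70; Pet2 has no Tet1CD point because it is listed at 0 without Tet1CD.

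Over both media, the 14 SKOM libraries gave Baiap2l1 and Tslp smaller errors. limma called 0% of 10711 genes for Dnmt1 (258 with an unadjusted p under 0.05), 0.056% for shDnmt1 and 4.23% for shp53, and neither member in any of them. Tslp had the most distant value, an shp53 change of -0.51 ± 0.24 (SE, adjusted p = 0.258 in limma). That term rests on the shp53+shDnmt1 libraries, which had 13 and 19 Tslp against 19 and 30 in the shDnmt1 libraries with and without vitamin C. A dependence of the Tet1CD change on the Dnmt1 constructs was not detectable: for Tet1CD with Dnmt1 the extra change was -0.23 ± 0.19 (SE) for Baiap2l1 (adjusted p = 0.993 in limma) and -0.03 ± 0.41 (SE) for Tslp (adjusted p = 1), and for Tet1CD with shDnmt1 it was 0.10 and 0.08 (adjusted p = 0.906 and 0.967). No gene passed these 2 terms (0% each, with 455 and 719 of 10711 genes at an unadjusted p under 0.05).

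Among the 3 Vc+ libraries with Tet1CD, the one labelled Tet1CD+Dnmt1 had the lowest value of all 4 genes. The highest value was 1.21 times the lowest for Baiap2l1, 1.23 times for Tslp, 1.62 times for Cfap70 and 1.91 times for Pet2. Tet1 itself did not follow this order, with 3129 in the Tet1CD, 2591 in the Tet1CD+Dnmt1 and 2503 in the Tet1CD+shDnmt1 library. The Tet1CD+Dnmt1 library was also the lowest of the 3 for 73.2% of the 56 genes with a Tet1CD change of at least 3, 44.1% of the 767 with a change of at least 1 and 27% of all genes. With 1 library per combination no test was made, and the 4 genes are not 4 independent observations of that library.

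Vitamin C without Tet1CD was compared in the 4 pairs of libraries with the same other constructs, as the log2 ratio of Vc+ to Vc- minus the median ratio of all genes (0.52 to 0.57), with no test because the tables were normalised separately. Baiap2l1 ran from -0.39 to 0.06, within the bulk of genes (12.6% to 58.4% of genes were lower). Tslp ran from -1.69 to -0.98, and only 0.0934% to 1.76% of genes were lower, so with no Tet1CD it stood lower in Vc+ than in Vc- cells, relative to the other genes, in all 4 pairs. Those Tslp values were low, at 13 to 19 in Vc+ and 19 to 34 in Vc- cells. They were also the reference for the rise that chose the genes, so the place of Tslp among all genes is a description. In the 3 pairs with Tet1CD the median ratio was 3.56 for Baiap2l1 and 1.99 for Tslp, from the values that chose them.

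In MEFs, which had no reprogramming factors and whose growth medium in the labels names no vitamin C, Baiap2l1 was also highest with Tet1CD. The MEF Tet1CD library had 253, and the control, Dnmt1, shDnmt1, shp53 and shp53+shDnmt1 libraries had 103, 88, 109, 77 and 93. The Tet1CD library thus lay above the range of the other 5, as it did for 24.5% of genes. Its ratio to the control was 2.46 on the deposited values and 1.26 on the log2(value + 5) scale, higher than for 98.6% of 11151 genes, of which 2.29% were at least 2-fold above the control. This compares 2 libraries and has no replicate check. The MEF Tet1CD library also followed the shared list of values of its table less closely than the other MEF libraries did (35.8% of ranks differed from the control), and the part of this in the Baiap2l1 value was not tested. The 5C library had 15, a log2 difference of -2.43 from the MEF control, but 97.1% of its ranks differed. Tslp, Cfap70 and Pet2 are not listed in the MEF table, where only 1 library carries Tet1CD.

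**Figure D3:**
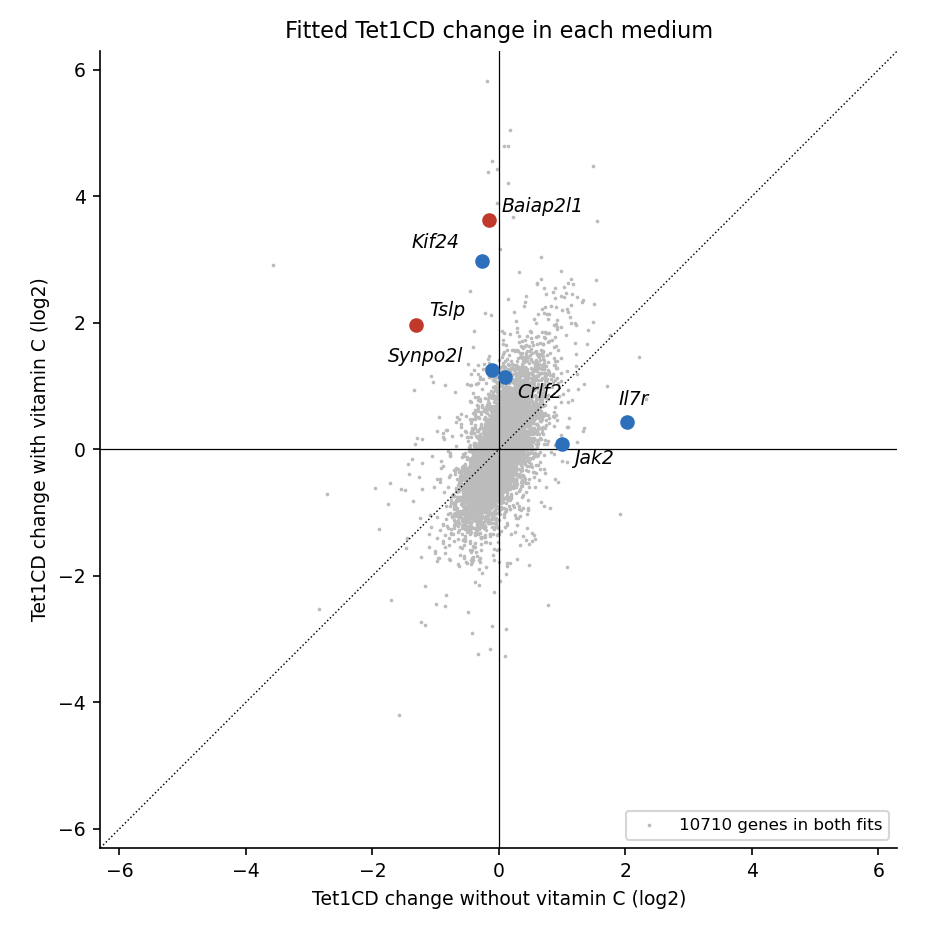
Fitted Tet1CD change (log2) without vitamin C (x axis) and with it (y axis) for the 10710 genes in both fits, shown as grey points, with equal change along the dotted line. Baiap2l1 and Tslp (red) lie at 3.62 and 1.97 on the y axis and at -0.15 and -1.30 on the x axis; 5 other genes named in the text are blue, among them Jak2 on the opposite side of the dotted line.

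Each locus was examined for other genes and for sequence that could share reads. Baiap2l1 (ENSMUSG00000038859) spans chr5:144264526-144358112 on the minus strand of mm10 with 14 exons, and its 3′ end overlaps that of Bri3, on the plus strand, by 49 bases. Whether strand was used in counting is not given in the sources used here, so reads in these bases cannot be assigned to one gene. Bri3 had 293 to 341 in Vc+ libraries with Tet1CD and 243 to 337 without, a change of 0.17 ± 0.14 (SE, adjusted p = 0.356 in limma), against the much larger one of Baiap2l1. Of the 3198 stretches of 50 bases in its transcripts, 73 (2.28%) occur in another gene, Dmrt1i, which no table lists. Tslp (ENSMUSG00000024379, chr18:32815383-32819799, plus strand, 5 exons), Cfap70 (ENSMUSG00000039543, chr14:20394193-20452222, minus strand) and Pet2 (ENSMUSG00000035395, chrX:89403848-89409689, minus strand, 12 exons) share none of their 1077, 3905 and 4122 stretches. Pet2 shares none with Dcaf8, whose level was 713 to 793 with Tet1CD and 799 to 973 without in the Vc+ table.

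Within 250 kb of the 4 genes lie 20 other listed genes, 5 around Baiap2l1, 2 around Tslp, 13 around Cfap70 and none around Pet2. In the Vc+ table, where limma called 20.7% of genes higher with Tet1CD and 23.6% lower, 3 of the 19 neighbours listed there rose and 4 fell, with a median change of -0.04 beside -0.07 over all genes. None came near the change of its member. Next to Tslp, Wdr36 at 17426 bases had a Vc+ change of -0.04 ± 0.12 (SE, adjusted p = 0.816 in limma) and Camk4 one of -0.02 ± 0.15 (SE, adjusted p = 0.912). Around Baiap2l1, Tecpr1 at 40911 bases rose by 0.42 ± 0.11 (SE, adjusted p = 0.0273 in limma), a call kept in 1 of 7 fits that left out a library. That fit left out shp53+shDnmt1, which leaves every Tet1CD change as in the full fit. Leaving out a Tet1CD library or its partner with the same other constructs gives the same Tet1CD change. Counts of such fits, here and below, are therefore not counts of independent checks. On the other side of Baiap2l1 lies Nptx2 at 187775 bases, a neuronal pentraxin listed only in the MEF table, with 129 in the Tet1CD library and 49 to 83 in the other 5.

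Of the Cfap70 neighbours, Mrps16 at 638 bases had a Vc+ change of -0.15 ± 0.13 (SE, adjusted p = 0.371 in limma). On the other side Anxa7, an annexin 3039 bases away, rose by 0.26 ± 0.08 (SE, adjusted p = 0.0406 in limma). Farther out, Synpo2l, which encodes an actin-associated protein of muscle, lies 206724 bases away. With vitamin C its libraries with Tet1CD, Tet1CD+Dnmt1 and Tet1CD+shDnmt1 had 107, 103 and 90 against 35 to 41 in the other 4, and without vitamin C 44, 25 and 34 against 28 to 42. It thus shared the Vc+ pattern at a smaller size, rising by 1.25 ± 0.15 (SE, adjusted p = 0.00191 in limma). The potassium channel gene Kcnk5, 212411 bases away, fell by 1.06 ± 0.27 (SE, adjusted p = 0.0230 in limma), with 12 to 28 against 39 to 62. Kcnk5 reached 32 only without Tet1CD, so a fall partly follows from its listing. The Vc+ calls of Anxa7 and Kcnk5 were each kept in 3 of 7 fits that left out a library, with adjusted p up to 0.234 and 0.146. The difference of the Tet1CD change between media passed for 2 of the 16 neighbours that could be tested, beside 16.9% of all genes: Synpo2l at 1.36 ± 0.23 (SE, adjusted p = 0.00600 in limma) in all 14 fits that left out a library, and Anxa7 at 0.33 ± 0.10 (SE, adjusted p = 0.0483) in 4 of the 14.

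**Figure D4:**
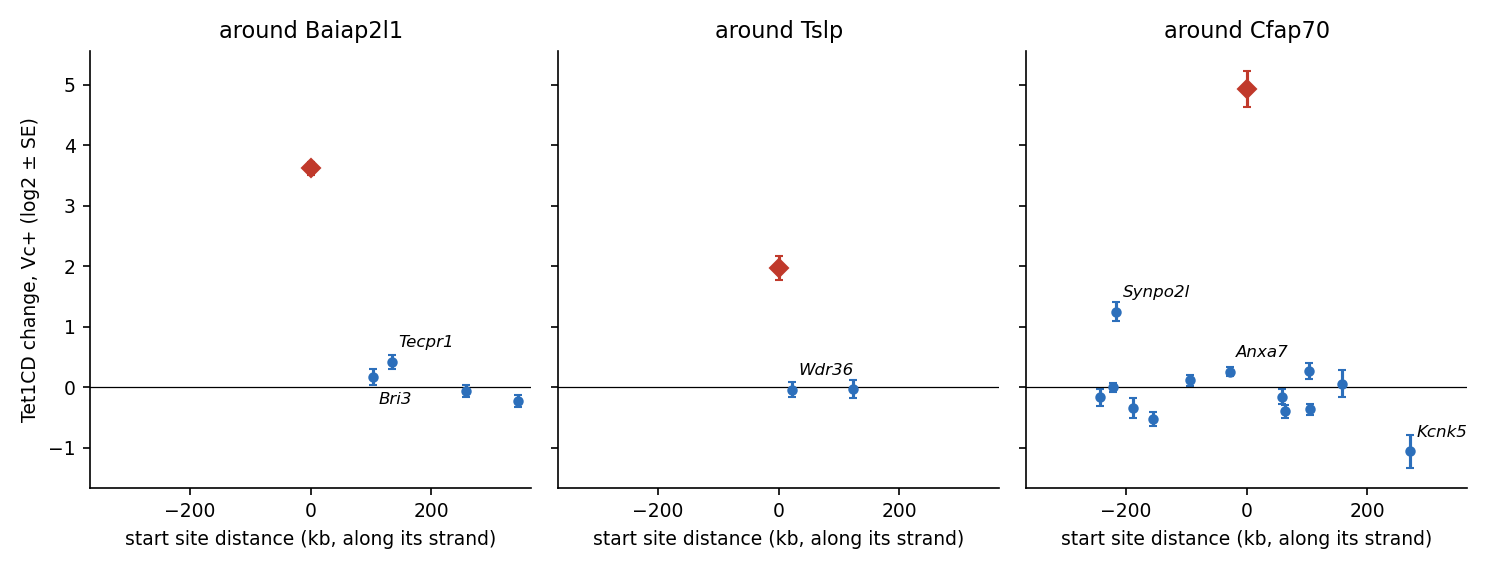
Fitted Tet1CD change in the Vc+ table (log2, bars of 1 standard error) of the listed neighbours (blue), against the distance between start sites in kb along the member's strand, for Baiap2l1, Tslp and Cfap70 (red diamonds at 0). Neighbours were taken by the gap between gene bodies, so start sites can lie beyond 250 kb. The neighbours run from -1.06 (Kcnk5) to 1.25 (Synpo2l), below the red diamonds at 3.62, 1.97 and 4.93.

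Tslp signals through a receptor made of Crlf2 and Il7r, with Jak1 and Jak2 and then Stat5a and Stat5b inside the cell. Of 15 measured genes of this axis and its relatives, 7 rose and none fell with Tet1CD in the Vc+ table (median 0.30, beside -0.07 over all genes). There limma called 20.7% of all genes higher and 23.6% lower. In the Vc- table, where limma called 7.25% of genes higher and 7.38% lower, 4 of 14 rose and none fell (median 0.24, beside -0.01). The difference between media passed upward for 3 of 14 and downward for 1, beside 8.57% and 8.28% of all genes. Without the Vc- Dnmt1 or the Vc- Tet1CD+Dnmt1 library limma called only 3 genes higher and 2 lower in the whole Vc- table, so every Vc- call in the text rests on both. Several genes of the list serve other cytokines too, Il4ra for interleukins 4 and 13 among them.

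Crlf2, the chain that binds Tslp, had higher values with Tet1CD in Vc+ cells. The Tet1CD, Tet1CD+Dnmt1 and Tet1CD+shDnmt1 libraries had 82, 52 and 86 with vitamin C, and the control, Dnmt1, shDnmt1 and shp53+shDnmt1 libraries had 31, 28, 30 and 41. Without vitamin C the same libraries had 32, 47 and 36, and 31, 36, 39 and 31, which overlap. Crlf2 rose by 1.15 ± 0.19 (SE, adjusted p = 0.00515 in limma) with vitamin C and had a change of 0.09 ± 0.17 (SE, adjusted p = 0.754) without. In the Vc+ libraries without Tet1CD only shp53+shDnmt1 reached 32, so the listing of Crlf2 there needed a Tet1CD library and partly fixed this rise. The difference of 1.05 ± 0.27 (SE, adjusted p = 0.0276 in limma) passed, but in 7 of the 14 fits that left out a library it did not, with adjusted p up to 0.106. These were the fits without the control, Tet1CD or Tet1CD+shDnmt1 library of either medium and without the Vc- shDnmt1 library.

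For Il7r, the other receptor chain, no change passed. It had 53, 75 and 77 with Tet1CD and 55, 45, 46 and 85 without it in Vc+ cells, and 20, 41 and 32 against 1, 0, 16 and 1 in Vc- cells. Its change was 0.44 ± 0.20 (SE, adjusted p = 0.116 in limma) with vitamin C and 2.03 ± 0.56 (SE, adjusted p = 0.0554) without, and the difference was -1.59 ± 0.56 (SE, adjusted p = 0.0862). In Vc- cells Il7r reached 32 only with Tet1CD, so its Vc- change and its difference partly follow from its listing. The kinase gene Jak2, named here after its values were seen as the gene with the downward difference, had 658, 655 and 760 with Tet1CD against 612 to 677 in Vc+ cells and 984, 1169 and 1169 against 512 to 620 in Vc- cells. It rose by 1.00 ± 0.08 (SE, adjusted p = 0.00475 in limma) only in the fit without vitamin C, and the difference between media was -0.91 ± 0.12 (SE, adjusted p = 0.00249). Of the Stat5 pair, Stat5b rose by 0.47 ± 0.10 (SE, adjusted p = 0.0107 in limma, and up to 0.122 without the Dnmt1 or the Tet1CD+Dnmt1 library) in the Vc+ table and Stat5a had a change of 0.14 ± 0.12 (SE, adjusted p = 0.377). Il4ra (1.57), Il7, the other ligand of Il7r (0.87), and Il1rl1, the receptor of the alarmin Il33 (0.89, a call kept in 4 of 7 fits that left out a library), also rose there, and Il33 is listed in no table. Without Tet1CD only the control library of Il1rl1 reached 32 (34), so its listing needed a Tet1CD library and partly fixed its rise.

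**Figure D5:**
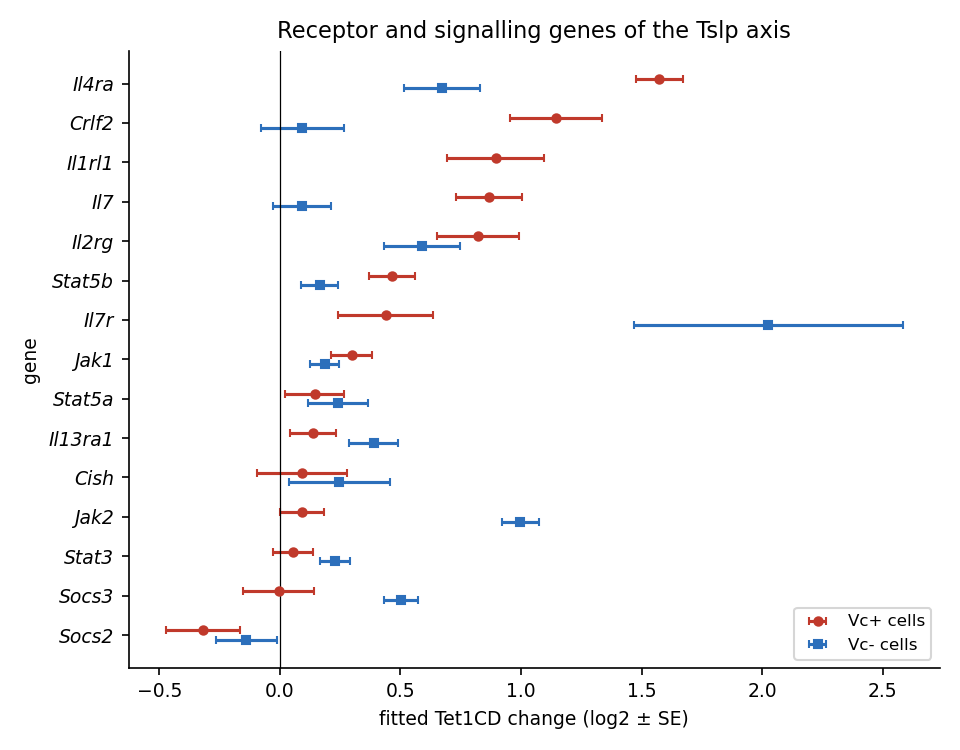
Fitted Tet1CD change (log2, bars of 1 standard error from limma) of the 15 measured genes of the Tslp axis in the Vc+ table (red circles) and of the 14 listed in the Vc- table (blue squares), ordered by the Vc+ value. Crlf2 lies at 1.15 with vitamin C and 0.09 without, Jak2 at 0.09 and 1.00.

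Other cytokine genes were measured beside Tslp. Of 11 other measured cytokine and chemokine genes 8 rose and 1 fell (median 0.70), beside 20.7% and 23.6% of all genes. The difference between media passed upward for 7 of 10 and downward for none, beside 8.57% and 8.28%. The largest changes were those of Il34 (2.27), a ligand of the Csf1 receptor, the monocyte chemokine Ccl2 (1.73), Csf1 (1.45) and Cxcl16 (1.39). In Vc- cells 4 of the 10 cytokine genes listed there rose with Tet1CD and 1 fell, beside 7.25% and 7.38% of all genes. Il34 and Csf1 rose there, unlike Tslp, by 0.82 ± 0.17 (SE, adjusted p = 0.0283 in limma) and 0.63 ± 0.08 (SE, adjusted p = 0.00787). Both calls were kept in 3 of 7 fits that left out a library. Il34 reached 32 in Vc- cells only with Tet1CD and Tslp only without it, so their contrast partly follows from the listing. Csf1 was above 32 in every Vc- library. Tnfsf9, like Tslp, was lower with Tet1CD in Vc- cells, with a change of -0.45 ± 0.12 (SE, adjusted p = 0.0487 in limma). Its Vc+ change was 0.45 ± 0.15 (SE, adjusted p = 0.0508), and the difference between media was 0.89 ± 0.20 (SE, adjusted p = 0.0179).

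The relatives and partners of Baiap2l1 were I-BAR family genes and actin regulators. Of 24 measured, 6 rose, 5 fell and 13 did not pass in the Vc+ table (median 0.04), near the shares of all genes, 20.7% and 23.6%. Its nearest relative Baiap2 had a change of 0.01 ± 0.09 (SE, adjusted p = 0.935 in limma) and Mtss1 one of 0.09 ± 0.14 (SE, adjusted p = 0.609), Mtss1l fell by 0.65 ± 0.12 (SE, adjusted p = 0.00664, and up to 0.0567 without the Dnmt1 or the Tet1CD+Dnmt1 library), and Baiap2l2 is listed in no table. Eps8l2, of the Eps8 family of actin regulators that I-BAR adaptors bind, rose by 1.07 ± 0.13 (SE, adjusted p = 0.00168 in limma), Cyfip2 of the WAVE complex rose by 0.82 ± 0.13 (SE, adjusted p = 0.00442), and Wasf1 of the same complex fell by 0.69 ± 0.16 (SE, adjusted p = 0.0147, a call kept in 3 of 7 fits that left out a library). Without vitamin C, 1 of the 24 rose and none fell, beside 7.25% and 7.38% of all genes.

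Of 84 motile cilia genes other than Cfap70, 19 are in the Vc+ table, and there 5 rose and 4 fell (median -0.16), beside 20.7% and 23.6% of all genes and their median of -0.07. Dnah11, a heavy chain of the outer dynein arm, was listed at 0 to 4 without Tet1CD and had 36 in the Tet1CD+Dnmt1, 70 in the Tet1CD and 84 in the Tet1CD+shDnmt1 library. Cfap61, of the radial spoke region, had 61 to 77 against 10 to 18. Both, like Cfap70, are listed in the Vc+ table and in no other. Neither reached 32 without Tet1CD, so both could be listed only through their Tet1CD libraries and had to be high there. The count of 5 that rose thus partly follows from the listing. Rfx2, a transcription factor of ciliogenesis, fell by 0.84 ± 0.24 (SE, adjusted p = 0.0301 in limma), with 11 to 19 against 27 to 44. It reached 32 only without Tet1CD, so a fall partly follows from its listing. Its call was kept in 1 of 7 fits that left out a library, the one without shp53+shDnmt1. Dnaaf2, a dynein assembly factor, fell by 0.66 ± 0.10 (SE, adjusted p = 0.00399 in limma). Of the intraflagellar transport genes, which serve all cilia, 3 of 28 rose and none fell (median 0.06), beside the same shares of all genes. They were Kif3b (0.44), Wdr35 (0.36) and Ift20 (0.32). Fits that left out a library kept the calls of Kif3b in 5 of 7, of Wdr35 in 3 of 7 and of Ift20 in 1 of 7. The fit that kept Ift20 was the one without shp53+shDnmt1.

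Germline genes, many of which are silent in fibroblasts, were examined beside Cfap70 and Pet2. Of 67 such genes 19 are in the Vc+ table, where 11 rose and 1 fell (median 2.08), beside 20.7% and 23.6% of all genes. Only 3 are in the Vc- table, where none passed, beside 7.25% higher and 7.38% lower. The list also holds genes of pluripotent cells, and a gene listed only through its Tet1CD libraries had to be high there, so these counts do not speak for the unlisted members. Dazl, an RNA-binding protein of germ cells, had 222 to 447 with Tet1CD against 1 to 2 without, and Tex19.1, which restrains retrotransposons in germ cells, 90 to 140 against 0 to 10. The Piwi gene Piwil2 had 176 to 215 against 11 to 20.

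The genes most like each member over all libraries were found by the root mean square distance of their log2 differences from the control library, with no test. For Cfap70 and Pet2, over 6 Vc+ libraries and 12020 genes, each was among the 4 nearest to the other, at 0.34, beside distances of their own profiles from the control of 3.30 and 3.14. Both were chosen by these same Vc+ values, so their nearness to each other partly follows from the choice. Both also had Mmrn2, an endothelial matrix gene (0.38 and 0.32), Tuba3b, a testis alpha-tubulin (0.61 and 0.33), and Esm1 (0.45 and 0.46) among their 4. For Baiap2l1, over 12 libraries in both media and 10710 genes, the nearest were Kif24, a centriolar kinesin (0.40), Cep112os2 (0.58), Ccrn4l (0.67) and Cd68 (0.67), beside 1.74 for its own profile. Kif24 had 595 to 1125 with Tet1CD and vitamin C, 87 to 133 without Tet1CD in that medium, and 32 to 65 in all Vc- libraries. For Tslp the nearest were Krt20 (0.53), the histone gene Hist1h4i (0.54), Bbs2 (0.56) and Suv39h2 (0.58), beside 1.17. Hist1h4i had 77 to 116 with Tet1CD against 32 to 53 with vitamin C, and 12 to 26 against 27 to 50 without, so its groups, like those of Tslp, lay on opposite sides in the 2 media. In Vc- cells it reached 32 only without Tet1CD, so its lower side there partly follows from its listing.

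Markers of other cells moved with Tet1CD beside the members. Over all genes limma called 20.7% higher and 23.6% lower with Tet1CD in the Vc+ table. In the Vc- table these shares were 7.25% and 7.38%. Of 20 macrophage and leukocyte markers 6 are in the Vc+ table, and their summed level was 2474 to 3309 with Tet1CD and 338 to 509 without; 5 rose and none fell, among them Laptm5 (2.82), Cd68 (2.56), Itgam (2.39) and Ptprc (2.30). In the Vc- table, where Baiap2l1 and Tslp were not higher with Tet1CD, 4 markers summed to 633 to 735 against 302 to 400, and all 4 rose. Ptprc reached 32 only with Tet1CD in both media, so the counts that rose partly follow from its listing. The MEF sums of 10 markers were 1739 with Tet1CD and 198 to 1249 without. The 23 fibroblast markers, which the cells of origin should express, summed to 123777 to 131780 with Tet1CD and 58547 to 99376 without in Vc+ cells, and 14 rose and 2 fell. The 22 of them in the Vc- table summed to 92342 to 95554 against 67977 to 78822. Epithelial markers, of which 11 of 22 are listed with vitamin C, ran lower with Tet1CD in Vc+ cells, at 6331 to 7135 against 7886 to 10419, with 1 rising and 7 falling. The 10 listed without vitamin C summed to 4296 to 4803 with Tet1CD and 4532 to 6667 without it. These ranges overlap, and 2 of the 10 rose and 3 fell. No listed marker was at 0 in every library of its table, and the part of other cells in the levels of the 4 genes was not tested.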

How the data were processed

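RNA of 21 mouse libraries was extracted with Trizol and prepared with an Illumina TruSeq kit, per the labels' protocols. Bowtie, RSEM and the mm10 build are named in the submitters' processing notes, with neither version nor role. The deposited values have the unit score: whole numbers that the authors normalised within each of 3 tables, by a method not given in the sources used here. All value columns were used.

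The analysis used log2(value + 5) of the genes whose mean value reached 10 in the fitted libraries. limma 3.58.1 in R 4.3.3 (empirical Bayes, intensity trend) was fitted with additive construct terms to each SKOM table (2 residual degrees of freedom) and, with medium terms, to both tables together. Thresholds were adjusted p under 0.05 (Benjamini-Hochberg over all genes of a fit). The fits were tested on simulated data. The medium itself was not tested, since the tables were normalised separately.

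The 4 genes and the 9 gene lists were chosen with earlier results of these data known. Genes named were the members, their I-BAR relatives and Tslp axis genes, nearest neighbours and neighbours with a 2-fold change or a difference between media, the 4 genes with the most like pattern, and up to 4 genes per list with the largest Vc+ Tet1CD change past the threshold. Jak2 and Tnfsf9 were added after their values were seen. A gene of the Tslp axis list was left out of that list and is not reported here. Promoters came from RefSeq (2 of 4 members matched) and exons from GENCODE M21. Alternatives changed the pseudocount, filter, trend, scaling, model and libraries included.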

Additional observations from a re-analysis of the deposited data

Results flagged for a closer look

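Tslp and Baiap2l1 had Tet1CD changes of opposite sign in the 2 media. Tslp was higher with Tet1CD in 3 of 3 matched pairs with vitamin C and lower in 3 of 3 without, with a difference of 3.28 on the log2(value + 5) scale. Baiap2l1 did the same with a difference of 3.77, but without vitamin C its pairs differed by only -0.02, -0.38 and -0.04 and its groups overlapped. Neither difference was tested, because it chose the genes. The signs of Tslp also follow partly from its listing, since it reached 32 only with Tet1CD in Vc+ and only without it in Vc- cells.

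The other results here passed limma's test of the difference of the Tet1CD change between media, with Vc+ minus Vc- values on the same scale. Near Cfap70 these were Synpo2l at 1.36 and Anxa7 at 0.33. Among the genes most like a member they were Kif24 at 3.25, Cep112os2 at 3.46, Ccrn4l at 3.15, Cd68 at 1.84, Krt20 at 1.53, Hist1h4i at 2.23, Bbs2 at 1.67, Suv39h2 at 2.26 and Esm1 at 2.99. These genes were picked for a pattern like a member's, and the list genes below for a large Vc+ change, so a positive difference partly follows from how they were picked and is a description here. In the Tslp axis they were Crlf2 at 1.05, Il4ra at 0.90, Il7 at 0.77 and, on the negative side, Jak2 at -0.91. Cytokine genes were Il34 at 1.46, Ccl2 at 1.32, Cxcl16 at 1.00 and Csf1 at 0.82. Actin regulators were Eps8l2 at 0.76 and Cyfip2 at 0.67, the transport gene Wdr35 had 0.48, and the leukocyte markers Laptm5 and Itgam had 1.85 and 1.51. Fits that left out a library kept the call in 6 of 14 for Cyfip2, Wdr35 and Il7, 7 of 14 for Crlf2, 8 of 14 for Eps8l2, 9 of 14 for Cxcl16 and Krt20, 12 of 14 for Il4ra and 4 of 14 for Anxa7.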

How the results depend on the processing

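No direction of a called result turned under the alternatives run. The pseudocount set the size of the low genes' changes. With a pseudocount of 1 the Tet1CD changes were 2.20 (Tslp) and 6.42 (Cfap70) with vitamin C and -1.59 (Tslp) without, and the Tslp difference 3.79. With 20 they were 3.41 (Baiap2l1), 1.44 (Tslp) and 3.31 (Cfap70) with vitamin C and -0.79 (Tslp) without, and the differences 3.53 (Baiap2l1) and 2.24 (Tslp). Without the intensity trend 204 genes were higher and 100 lower with Tet1CD in the Vc- table, and the cause was not tested. Leaving out each library moved the members' Vc+ changes over 3.53 to 3.69 (Baiap2l1), 1.93 to 2.00 (Tslp) and 4.61 to 5.19 (Cfap70), their Vc- changes over -0.21 to -0.03 and -1.39 to -1.22, and their differences over 3.65 to 3.84 and 3.19 to 3.36. Leaving out either library of a matched pair gave the same change, and leaving out shp53+shDnmt1 did not move it, so these fits are not independent checks. Counts over all genes ran from 1146 to 2537 higher and 1049 to 2943 lower with vitamin C, 3 to 1158 and 2 to 1202 without, and 450 to 1148 upward and 311 to 1173 downward for the difference. The lowest Vc+ counts came without the Dnmt1 or Tet1CD+Dnmt1 library, the lowest Vc- counts without the Dnmt1 or the Tet1CD+Dnmt1 library (54 and 19 without shDnmt1, 37 and 18 without Tet1CD+shDnmt1), and the lowest difference counts without the Vc- Tet1CD+shDnmt1 library. The 22 tests of members (among them the 2 shp53 terms of Cfap70 and Pet2 that are not read) stayed above the threshold in 353 alternative values (lowest adjusted p = 0.0596). Of 80 called Tet1CD results of other named genes, Tnfsf9 not included, 44 passed in every alternative run and all 80 kept their direction. No paired analysis was possible because the labels carry no replicate numbers that could serve as a block; libraries with the same other constructs were matched only as a description, and the mean of the 3 matched differences equals the fitted change. Depth is unknown, since the values are normalised.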
